A study of Rattus norvegicus with 21 samples.

Results

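GABA, the main inhibitory transmitter of the forebrain, is made from glutamate by glutamic acid decarboxylase. The 3 genes described here, of 16245 gene symbols in a table of 34976 rows, were listed by name. Gad1 and Gad2 encode the decarboxylase, and Slc32a1 encodes the vesicular GABA transporter (VGAT), which loads GABA and glycine into synaptic vesicles. Each symbol had 1 row, so no choice between rows was needed.

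The enzyme made from Gad1 is spread through the cytosol and is known for making most of the GABA of the brain. The enzyme made from Gad2 sits on vesicle membranes at axon terminals and is largely held without its pyridoxal phosphate cofactor until demand rises. Loading by the transporter is driven by the proton gradient of the vesicle. Forebrain interneurons usually carry transcripts of all 3 genes, and pyramidal neurons release glutamate instead.

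The cells were 21 single neurons from hippocampi of embryonic day 18 Wistar rats, all carrying a Venus reporter transgene for VGAT, cultured for 17 days, recorded with a patch electrode and aspirated for full-length cDNA sequencing. The groups were 5 pyramidal neurons cultured with glia, 5 purified GABAergic neurons given oligodendrocyte conditioned medium (OCM) from day 3 in vitro, 5 purified GABAergic neurons without OCM, and 6 GABAergic neurons cultured with glia. Purified cultures had received antimitotic agents (FdU, U, 5 µM) 24 h after dissection, which were removed after 36 h. The OCM came from oligodendrocytes of postnatal day 2 cortex. How the label of pyramidal or GABAergic was given to each cell is not stated in the sources used here. If it rested on the reporter, Slc32a1 and the label are not independent. The labels name no animal or culture, so each group counts as 1 sample: no test was run. Every SD and range given here is over cells.

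Values are reads divided by a factor per cell, called normalized values below. Depth was 1817671 to 25160911 recovered reads per cell. After thinning to the smallest total, 2461 to 4986 genes were above 0 in pyramidal neurons, 3747 to 5680 in OCM-treated neurons, 2536 to 3791 in purified neurons and 3608 to 8202 in glia-cultured GABAergic neurons. The summed values of 15 pan-neuronal genes were 19766 to 109040, 83176 to 141890, 73594 to 129786 and 115121 to 186284 in the same groups. Sample titles open with the letters S, P or ech, which the sources used here do not explain. All 5 OCM-treated cells and 4 of 5 purified cells were titled S, against 1 of 6 glia-cultured GABAergic cells. Pyramidal cells 3 and 4 carried oligodendrocyte transcripts, with summed marker values of 324915 and 103570, against at most 1604 in the other 3 pyramidal cells. Cell 3 also had summed astrocyte marker values of 67323, against at most 3527 in the other pyramidal cells, and microglial ones of 26818. It had the lowest pan-neuronal sum, 19766.

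The labels were first set against defining genes. Slc17a7, which loads glutamate into vesicles, had 0 reads in all 16 GABAergic cells and was above 0 in 4 of 5 pyramidal cells, all but cell 3. Gad2 and Slc32a1 were above 0 in all 16 GABAergic cells, and Gad1 in 15 of them. In rn6, the build named for the deposited table, Gad1 spans chr3:56861431-56902137, Slc32a1 spans chr3:155103150-155107815 and Gad2 spans chr17:89171573-89234770. No other row of the table overlapped any of these spans.

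The sequences around the start sites of the 3 genes are shown as a description. Whether they bear on the differences between cultures was not tested. They are 300 bases each, from 250 before the start to 50 after it, taken from RefSeq for assembly GRCr8 on the forward strand. That assembly is not the build of the deposited table. Capitals mark matches on either strand to a TATA box (TATAAA), a GC box (GGGCGG) or a CCAAT box (CCAAT).
Gad1, chr3:75777202-75777501: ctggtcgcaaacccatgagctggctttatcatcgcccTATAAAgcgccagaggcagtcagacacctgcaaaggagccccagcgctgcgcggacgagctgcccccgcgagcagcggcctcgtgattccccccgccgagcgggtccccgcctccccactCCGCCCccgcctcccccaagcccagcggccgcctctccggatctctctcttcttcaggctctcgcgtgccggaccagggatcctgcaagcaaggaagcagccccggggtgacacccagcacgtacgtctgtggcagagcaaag
Gad2, chr17:89671468-89671767: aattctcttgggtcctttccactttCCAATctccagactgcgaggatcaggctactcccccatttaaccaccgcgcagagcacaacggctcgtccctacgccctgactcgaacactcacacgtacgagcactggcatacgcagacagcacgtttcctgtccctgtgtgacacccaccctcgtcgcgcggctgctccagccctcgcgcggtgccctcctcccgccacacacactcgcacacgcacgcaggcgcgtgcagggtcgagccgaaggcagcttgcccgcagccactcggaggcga
Slc32a1, chr3:167686995-167687294: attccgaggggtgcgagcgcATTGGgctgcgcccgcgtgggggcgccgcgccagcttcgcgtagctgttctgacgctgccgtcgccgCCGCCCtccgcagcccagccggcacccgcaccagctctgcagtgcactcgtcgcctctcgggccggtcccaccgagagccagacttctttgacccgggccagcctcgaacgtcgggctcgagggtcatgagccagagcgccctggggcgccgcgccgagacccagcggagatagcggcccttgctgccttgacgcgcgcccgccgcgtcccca

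Gad1 held TATAAA at bases 38 to 43 of its window and a GC box, in reverse, at bases 158 to 163. Gad2 held a CCAAT box at bases 26 to 30 and neither of the others. Slc32a1 held a reverse CCAAT box at bases 21 to 25 and a reverse GC box at bases 88 to 93. Of 33469 windows of this length, 14.2% held TATAAA, 33.1% the GC box and 37.5% the CCAAT box on either strand. The cAMP response element TGACGTCA and the homeodomain core TAATTA, searched likewise, matched in none of the 3 windows and in 1.83% and 5.36% of all windows. All 3 windows were rich in CpG, with 26 in Gad1, 29 in Gad2 and 42 in Slc32a1, against a median of 7 over all windows. Counted from the start, TATAAA in Gad1 began at -213 and its GC box at -93. The CCAAT boxes of Gad2 and Slc32a1 began at -225 and -230, and the GC box of Slc32a1 at -163. These are matches of letters, not mapped sites.

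Gad1, the cytosolic enzyme, was the member whose values separated purified from glia-cultured GABAergic cells. It had 0 reads in each of the 5 pyramidal cells. In OCM-treated cells 1 to 5 its normalized values were 2422, 11931, 15540, 8585 and 12320, and in purified cells 1 to 5 they were 2930, 1636, 2574, 0 and 2725. In glia-cultured GABAergic cells 1 to 6 they were 17542, 19503, 17837, 6011, 17297 and 9885. All purified cells thus lay below all glia-cultured GABAergic cells. Among OCM-treated cells, cell 1 lay within the purified range and the other 4 lay above it.

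Gad2, the vesicle-bound enzyme, did not follow Gad1 in every cell. It was at 924 and 714 in pyramidal cells 1 and 2 and at 0 in the other 3. In OCM-treated cells 1 to 5 it was at 5156, 3297, 8487, 9216 and 13025. In purified cells 1 to 5 it was at 1197, 2122, 9006, 14087 and 898. In glia-cultured GABAergic cells 1 to 6 it was at 11874, 16462, 25558, 6765, 12077 and 14603. Relative to their mean, purified cells were the most widely spread GABAergic group. Purified cells 3 and 4 lay among the glia-cultured cells, and cells 1, 2 and 5 lay below all of them and below all OCM-treated cells.

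Slc32a1, the vesicular transporter, had 0 reads in all 5 pyramidal cells. It was at 1837, 975, 335, 251 and 112 in OCM-treated cells 1 to 5, and at 705, 462, 1357, 390 and 652 in purified cells 1 to 5. In glia-cultured GABAergic cells 1 to 6 it was at 171, 632, 787, 826, 476 and 882. The 3 GABAergic groups overlapped throughout, and OCM-treated cells held both the highest and the lowest value of the 16.

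**Figure D1:**
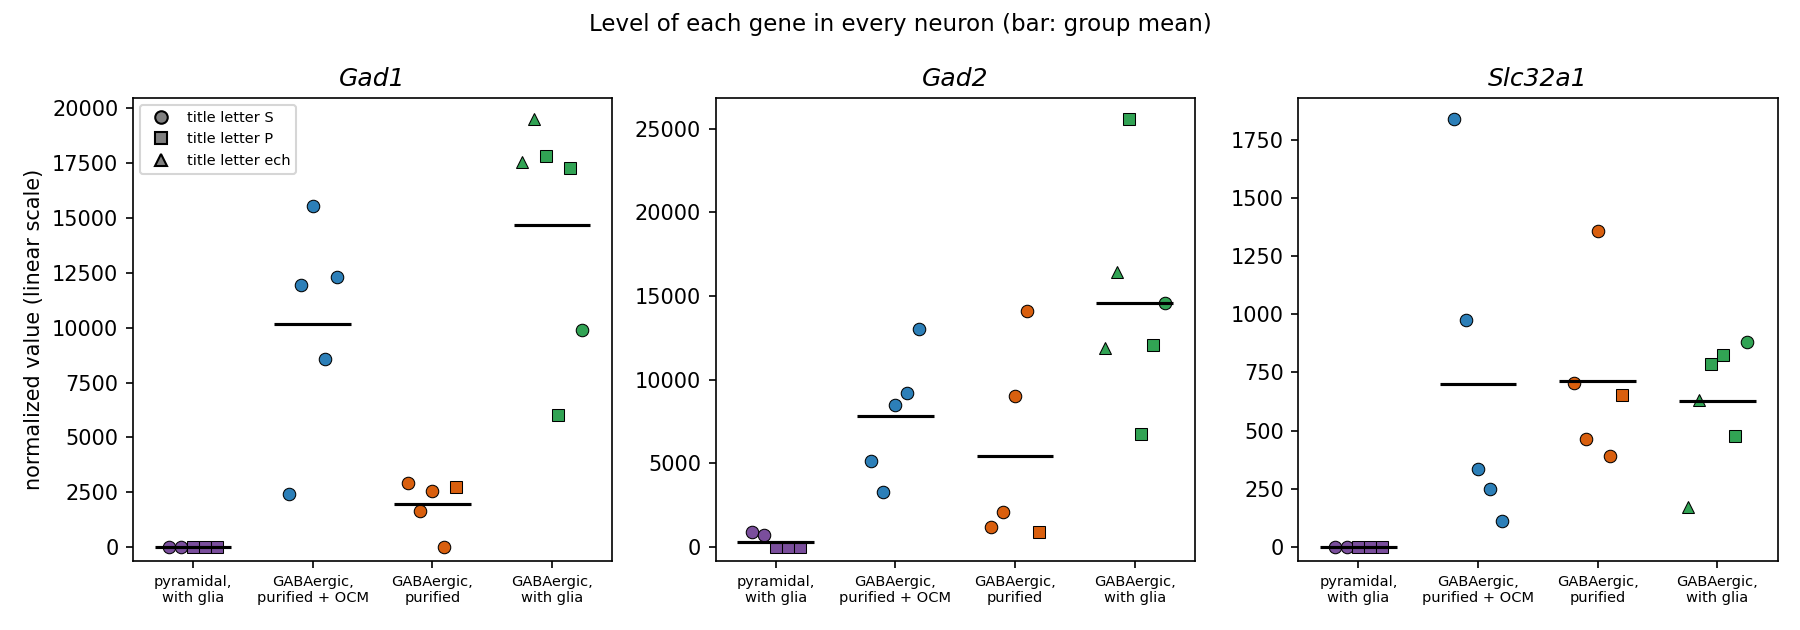
Normalized value (linear axis) of Gad1, Gad2 and Slc32a1 in each of 21 neurons by group; points are cells, shapes give the letter of the sample title and bars are group means. Gad1 shows purified cells (0 to 2930) below all glia-cultured GABAergic cells (6011 to 19503), whereas Slc32a1 shows the 3 GABAergic groups overlapping.

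Ordered by group mean, Gad1 was highest with glia, then with OCM, then in purified cells, and at 0 in pyramidal cells. Neighbouring groups in that order overlapped: OCM-treated with glia-cultured cells broadly, purified with OCM-treated cells through OCM-treated cell 1, and pyramidal with purified cells through purified cell 4. For Gad2 the order was the same, and pyramidal cells overlapped purified cells, since pyramidal cell 1 at 924 exceeded purified cell 5 at 898. In RPM (a gene's reads per 1000000 recovered reads) that pair was the other way round, at 108 and 123. For Slc32a1 the group means of the 3 GABAergic groups lay between 629 and 713 and had no order beyond the spread of cells. The coefficient of variation between cells was 0.49 for Gad1 in OCM-treated, 0.61 in purified and 0.37 in glia-cultured cells, and 0.48, 1.07 and 0.43 for Gad2. For Slc32a1 it was 1.02, 0.54 and 0.43.

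The place of each gene within its own cell was also read. Ranked among all symbols above 0 in a cell, Gad1 stood at places 27 to 425 in OCM-treated cells, 458 to 1284 in the 4 purified cells that had it, and 22 to 161 in glia-cultured cells. By rank, unlike by value, OCM-treated and purified cells did not overlap for Gad1, but places 425 and 458 are close. In RPM they overlapped, with OCM-treated cell 1 at 381 and purified cells at 0 to 443. Per 1000 of the summed pan-neuronal values, OCM-treated cell 1 was at 17.1, below the 4 purified cells that had Gad1 (18.5 to 39.8). The share of all genes without overlap by rank was not computed. Gad2 stood at places 52 to 312 with OCM, 34 to 1340 in purified cells and 16 to 134 with glia. Slc32a1 stood at places 628 to 3114, 1127 to 2494 and 1973 to 3479. Ranks between genes also follow transcript length, so they are set side by side here for 1 gene at a time.

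Pyramidal neurons were set beside GABAergic neurons first, both from cultures that kept their glia. All 3 genes were lower in pyramidal cells with no overlap. The threshold for a call was a difference of 1 in the group mean of log2(normalized value + 1), which is 2-fold on that scale. This threshold is not a 2-fold change of the group means, from which it can differ widely where cells are at 0. Among 6571 genes above 0 in at least 3 cells of these groups, 64.2% were past it as lower and 13.3% as higher. Those past it with no overlap between cells were 1.83% as lower and 0.228% as higher. The differences on this log2 scale were -13.73 for Gad1, -9.85 for Gad2 and -9.12 for Slc32a1, against a median of -2.05 over all genes. No gene of the 6571 had a lower difference than Gad1, and 27 had a lower one than Gad2.

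With 0 of 49453612 pooled reads for Gad1 and for Slc32a1, these folds are bounds. Set against a floor of 3 reads over the pyramidal group, Gad1 was at least 4148-fold lower and Slc32a1 at least 178-fold lower in pyramidal cells. The exact Clopper-Pearson upper limit for either gene was 0.0746 RPM, over the pooled pyramidal reads, at 95% confidence. Intervals and floors here cover counting error only. Gad2 differed in having reads in the pyramidal group: 625 in cell 1 and 121 in cell 2, or 108 and 66.6 RPM. Its group mean was 328 (SD 455, 5 cells) in pyramidal cells and 14556 (SD 6304, 6 cells) in glia-cultured GABAergic cells, a ratio of 0.0225.

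Pyramidal cells 1 and 2, which had Gad2 reads, were both titled S and both had Slc17a7, at 11740 and 10875. Whether carried-over RNA of GABAergic cells contributed to the Gad2 reads was not tested. Pyramidal cells 3 and 4, which held oligodendrocyte transcripts, had 0 reads of all 3 members. Without them the differences for Gad1 and Slc32a1 stayed at -13.73 and -9.12, and that for Gad2 was -7.27.

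The next comparison sets purified GABAergic neurons beside glia-cultured ones. Gad1 was lower in purified cells without overlap, and Gad2 was lower on average with overlap. Slc32a1 overlapped throughout, with close means. Past the threshold were 64.4% of 6302 genes as lower and 11% as higher. Those without overlap were 1.49% as lower and 0.159% as higher, so a lower mean was the common case and a gap between all cells was not. Gad1 averaged 1973 (SD 1209, 5 cells) in purified cells and 14679 (SD 5411, 6 cells) with glia, a ratio of 0.134, and its log2 difference was -4.74. Gad2 averaged 5462 (SD 5855) and 14556 (SD 6304), a ratio of 0.375 and a log2 difference of -2.12. That is close to the median of all genes, which was -2.13.

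Slc32a1 averaged 713 (SD 383) in purified cells and 629 (SD 269) with glia, with a log2 difference of 0.22. Of the 6302 genes, 82.1% had a lower difference than Slc32a1, against 50.1% for Gad2 and 16.4% for Gad1. The 3 members thus stood at different places among all genes, which were lower in purified cells by the median above. The place of Gad1 rested partly on purified cell 4, which had 0 Gad1 reads. Without that cell the Gad1 difference was -2.50, and its place and the median of all genes were not recomputed. The direction for Slc32a1 was not fixed: it was 0.79 when cells were scaled to their pan-neuronal sum -0.41 when they were scaled to their upper quartile, and -0.45 among cells titled S.

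The gap in Gad1 was also present on other scales. In RPM, purified cells had 0 to 443 and glia-cultured cells 801 to 2305. Per 1000 of the summed pan-neuronal values, purified cells had at most 39.8 and glia-cultured cells at least 50. The size of the log2 difference rested partly on purified cell 4, which had 0 Gad1 reads: without it the difference was -2.50. Fewer genes were above 0 in purified cells, as given above, and the part of this in the result was not tested. Among cells titled S, 4 purified cells had 0 to 2930 and the 1 glia-cultured cell had 9885. The antimitotic agents and the lack of glia cannot be told apart in this design.

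The comparison named in the title of the study sets OCM-treated purified neurons beside purified neurons without OCM. Gad1 and Gad2 were higher on average with OCM and past the threshold, but no member separated the groups. Past it were 56% of 5143 genes as higher and 16.4% as lower. Those without overlap were 0.797% as higher and 0.214% as lower. Gad1 averaged 10160 (SD 4978, 5 cells) with OCM and 1973 (SD 1209, 5 cells) without, a ratio of 5.15. Its log2 difference was 4.09, and 1.84 without purified cell 4. The lowest OCM-treated cell, cell 1 at 2422, lay below 3 of the 5 purified cells. The next lowest, at 8585, lay above all of them.

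Gad2 averaged 7836 (SD 3776) with OCM and 5462 (SD 5855) without, a ratio of 1.43. The log2 difference of 1.18 was less than the pooled SD of the cells, 1.37, and was 0.73 without purified cell 5. It stood below the median of all genes, which was 1.40. Slc32a1 averaged 702 (SD 716) and 713 (SD 383). Its log2 difference was -0.54, on the other side of 0 from that of both enzymes, -0.05 without OCM-treated cell 5 and 0.10 when cells were scaled to their upper quartile. Of the 5143 genes, 82.4% had a lower difference than Gad1, 46.3% than Gad2 and 21.6% than Slc32a1. Without purified cell 4 the Gad1 difference was 1.84, and its place among all genes was not recomputed.

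OCM-treated neurons were also set beside glia-cultured GABAergic neurons, from which they differ in the antimitotic agents as well. No member was past the threshold, whereas 44.4% of 6772 genes were past it as lower and 20.3% as higher. Those without overlap were 0.473% as lower and 0.118% as higher. The log2 differences were -0.66 for Gad1, -0.94 for Gad2 and -0.33 for Slc32a1, against a median of -0.72 over all genes. Cells overlapped for all 3. Gad2 lay close to the threshold: it was past it without OCM-treated cell 3, 4 or 5 (-1.002, -1.03 and -1.16), without glia-cultured cell 4 (-1.13) and among cells titled S (-1.05). Slc32a1 was at -1.07 as a difference of medians and at 0.17 without OCM-treated cell 5. For Gad1, OCM-treated cells 2, 3 and 5 lay between 11931 and 15540, inside the glia-cultured range of 6011 to 19503. The purified cells serve in 2 of these comparisons and the glia-cultured GABAergic cells in 3, so the comparisons are not independent of each other.

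Pooling the reads of a group weights its deeper cells. Gad1 then made up 1460 RPM (exact 95% interval 1450 to 1471) with OCM, 287 (281 to 294) in purified cells and 1984 (1975 to 1993) with glia. Gad2 made up 1019 (1010 to 1028), 578 (569 to 587) and 1784 (1775 to 1793). Slc32a1 made up 120 (117 to 123), 90.0 (86.4 to 93.8) and 67.6 (65.9 to 69.3). These intervals cover counting error and are far narrower than the spread between cells.

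The balance of the 2 decarboxylase genes was read within each cell, where the scaling factor cancels. Gad1 and Gad2 transcripts differ in length, so the share of Gad1 in their summed reads is compared between cells and is no ratio of molecules. In OCM-treated cells 1 to 5 it was 31.96%, 78.3%, 64.7%, 48.2% and 48.6%. In purified cells 1 to 5 it was 71.0%, 43.5%, 22.2%, 0% and 75.2%. In glia-cultured cells 1 to 6 it was 59.6%, 54.2%, 41.1%, 47.0%, 58.9% and 40.4%. Glia-cultured cells thus had the narrowest range. Of the OCM-treated cells, 2 lay above it, 1 below it and 2 within it.

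The mean share was 54.4% (SD 17.7, 5 cells) with OCM, 42.4% (SD 32.02, 5 cells) in purified cells and 50.2% (SD 8.60, 6 cells) with glia. The differences between these means, 11.97 percentage points for OCM against purified cells and -7.82 for purified against glia-cultured cells, were less than the spread between cells. Without purified cell 4 they were 1.37 and 2.78. The counting error of a single cell was small beside this spread: the widest interval, in purified cell 2, ran from 41.7% to 45.4%. Of the 5 purified cells, 2 lay above the glia-cultured range, 2 below it and 1 within it.

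**Figure D2:**
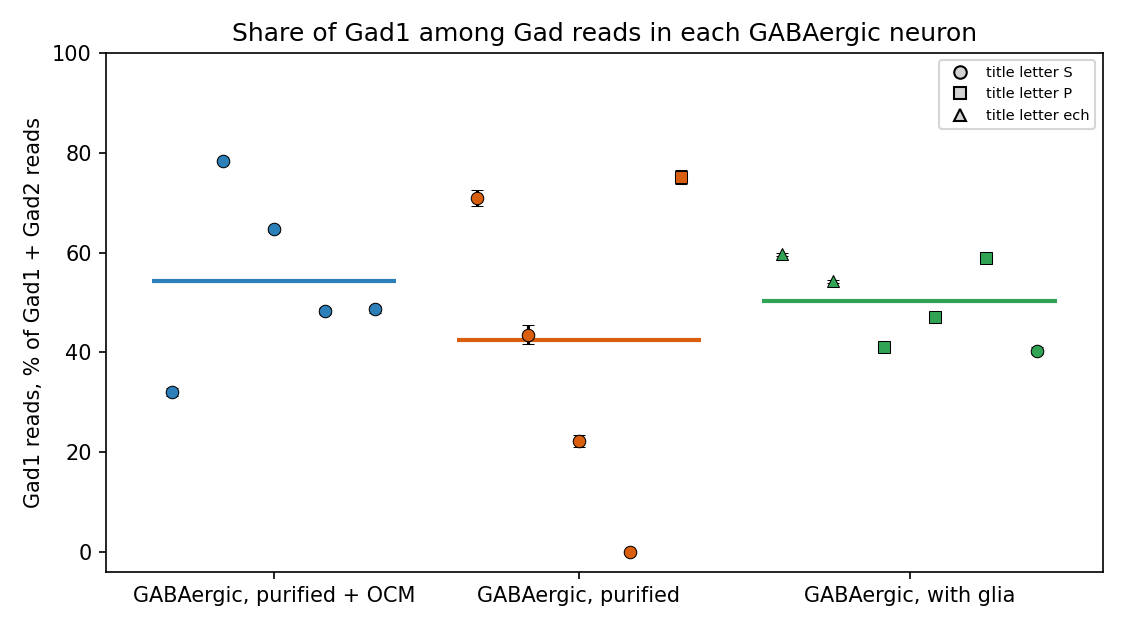
Gad1 reads as a percentage of Gad1 plus Gad2 reads in each of the 16 GABAergic neurons; shapes give the title letter, error bars are exact 95% binomial intervals (mostly hidden by the symbols) and lines are group means. Glia-cultured cells lie between 40.4% and 59.6%, purified cells between 0% and 75.2%.

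Purified cell 4 was the GABAergic cell without Gad1. It had 0 of 4000609 reads, against 8190 reads of Gad2, and the exact 95% upper limit of its Gad1 share was 0.0450%. Its Gad2 value of 14087 was the highest of the purified group and its Slc32a1 value of 390 the lowest. It had 2573 genes above 0, the fewest of the 16 GABAergic cells, and the part of this in the missing Gad1 reads was not tested.

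The purified cells also differed in subtype transcripts. Purified cells 1 and 2, with low Gad2, had the neuropeptide gene Cck at 19464 and 28143, and purified cell 5, with the lowest Gad2, had Sst at 243977 and Npy at 185668. Purified cells 3 and 4, with high Gad2, had 0 reads of Cck and Sst. Reln, the gene of a secreted matrix protein, was at 4608, 10623, 10028, 6811 and 244 in purified cells 1 to 5, so it did not divide them by Gad2. Nor did Penk, the proenkephalin gene, which was at 21284 in purified cell 1, 627 in cell 2, 25005 in cell 4 and 0 in the other 2, and Npy was at 3964 in purified cell 3. OCM-treated cell 1, with the lowest Gad1 and the highest Slc32a1 of its group, had the highest Sst of the series, at 325053. OCM-treated cell 5, with Sst at 234564 and the highest Npy, at 276125, had Gad1 at 12320 and the lowest Slc32a1, at 112. Whether subtype bears on the members was not tested.

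**Figure D3:**
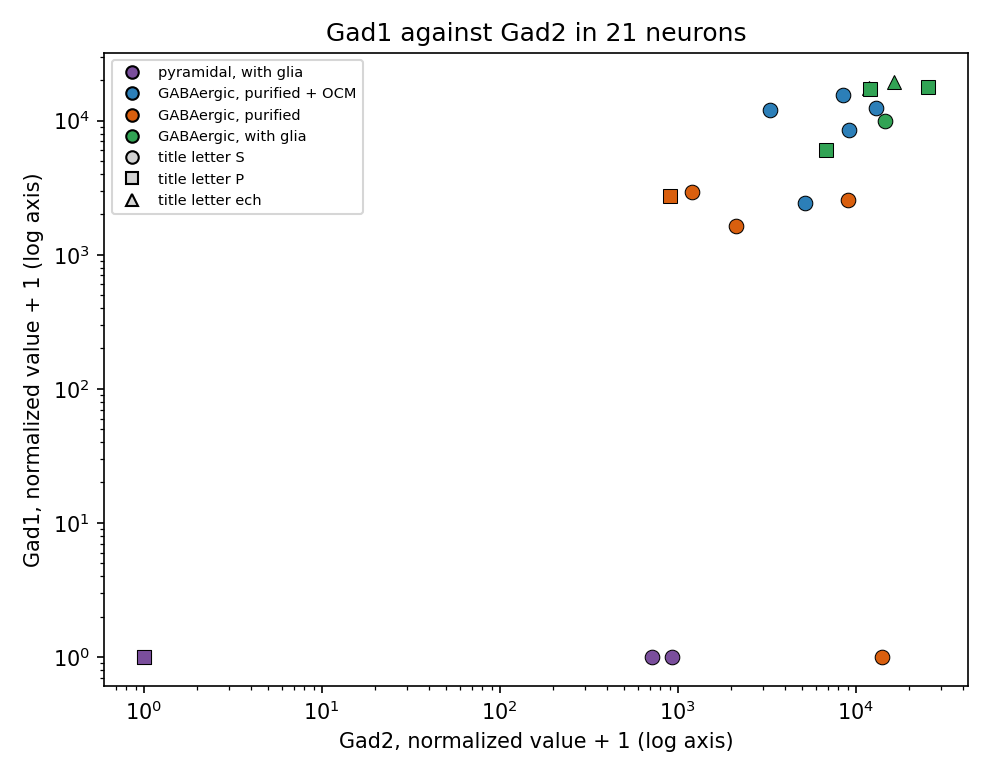
Gad1 against Gad2 in 21 neurons, each as normalized value plus 1 on log axes; colours give the group and shapes the title letter, and pyramidal cells 3, 4 and 5 lie on top of each other at 0 for both genes, as glia-cultured GABAergic cells 1 and 5 nearly do at the upper right. Purified cell 4 (Gad2 at 14087) and pyramidal cells 1 and 2 (Gad2 at 924 and 714) lie on the lower edge with 0 Gad1 reads.

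Over the 16 GABAergic cells, Gad1 and Gad2 values on the log2 scale had a Pearson r of 0.07 and a Spearman rho of 0.55. Without purified cells 2 and 4, the cells farthest from the median of Gad1, r was 0.69 and rho 0.72. With each cell taken as its deviation from its group mean, r was -0.52 and rho -0.27, and both were -0.16 without OCM-treated cell 1 and purified cell 4. A positive relation was thus not seen within groups, and the size of the negative one rested on those cells. Gad1 and Slc32a1 had r = -0.04 and rho = -0.26, and r = -0.53 and rho = -0.55 without purified cells 2 and 4. As deviations from group means they had r = 0.06 and rho = -0.06. Gad2 and Slc32a1 had r = -0.23 and rho = -0.22. With the summed pan-neuronal values Gad2 had r = 0.67 and Gad1 0.02, but without the 2 cells farthest from the median of each gene these were 0.51 and 0.46. These describe 16 cells in 3 groups that share a library method and a scaling.

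Genes with the most similar pattern were sought among 1133 symbols with a mean of at least 50 that were above 0 in at least 14 of the 16 GABAergic cells. Each rho pools the GABAergic groups and was not computed within groups, so a difference between groups can raise it. For Gad1 the highest Spearman rho were those of Serpini1 (0.93), Smpd1 (0.85), Pcmt1 (0.84), Csdc2 (0.83) and Ndrg4 (0.83). Each of these genes had its highest group median with glia and its lowest in purified cells. Serpini1, which encodes the protease inhibitor neuroserpin, had medians of 10412 with OCM, 3212 in purified cells and 14978 with glia. Gad2 stood at place 78 of this ranking and Slc32a1 at place 949. For Gad2 the highest were Astn1 (0.82), Ncdn (0.76), Atp6v0a1 (0.76), Ppp2ca (0.75) and Snap25 (0.75). Atp6v0a1 encodes a subunit of the proton pump and Snap25 a vesicle fusion protein. For Slc32a1 the highest were Rps10 (0.65), Cbarp (0.64), Camta1 (0.64), Cltb (0.62) and Sez6l2 (0.62), weaker than for either enzyme.

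The rest of the GABA pathway was read from 7 lists of 48 genes, for reuptake, breakdown, glutamate supply, the cofactor, the proton pump, anchoring of the Gad2 enzyme and an alternative route from putrescine. Of these, 45 were in the table. In pyramidal against glia-cultured GABAergic cells 27 of 37 measured genes were past the threshold as lower and 0 as higher. In purified against glia-cultured cells it was 24 of 37 and 0, and in OCM-treated against purified cells 0 of 33 were lower and 17 higher. In OCM-treated against glia-cultured cells 18 of 37 were lower and 4 higher. The median log2 differences were -2.87, -2.54, 1.22 and -0.89, against -2.05, -2.13, 1.40 and -0.72 over all genes. These counts are to be read against the shares of all genes given above, of which 64.2% and 64.4% were lower in the first and second comparison and 56% higher in the third.

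Of the GABA reuptake genes, Slc6a12 and Slc6a13 were at 0 in each of the 21 cells and Slc6a11 in 18.

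Breakdown genes were low and patchy. Abat, the transaminase that degrades GABA, was at 0 in 4 of 5 pyramidal cells and above 0 in every glia-cultured GABAergic cell (279 to 1982). It averaged 1691 with OCM, where all 5 cells had it (18.6 to 4605), and 338 in purified cells, where 3 of 5 had it. Its log2 difference was 4.71 (OCM-treated against purified) and -5.73 (purified against glia-cultured), with overlap in both. Aldh5a1, the next enzyme of the same route, was above 0 in 3 glia-cultured GABAergic cells and in no other cell.

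Genes that supply glutamate and cofactor varied by detection. Slc38a1, a neuronal glutamine transporter, had 0 reads in all 5 pyramidal cells and 447 to 2128 in the glia-cultured GABAergic cells, without overlap. It was above 0 in 4 of 5 OCM-treated and 4 of 5 purified cells. Glud1, glutamate dehydrogenase, averaged 549 in purified cells (2 of 5 above 0) and 2987 with glia (6 of 6), a log2 difference of -7.18. Slc38a2, a further glutamine transporter, averaged 2636 with OCM, most of it in 1 cell at 11604, and 0.54 in purified cells. Pdxk, the kinase that makes pyridoxal phosphate for both decarboxylases, was above 0 in 3 of 5 OCM-treated cells, 0 of 5 purified cells and 5 of 6 glia-cultured GABAergic cells. Overlap remained in each of these comparisons of GABAergic groups.

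The proton pump that powers vesicle loading was detected in all groups. The shares of all genes past the threshold were 64.2%, 64.4%, 56% and 44.4% in the 4 comparisons that follow. Of 16 subunit and accessory genes measured, 11 were past the threshold as lower in pyramidal cells, with Atp6ap2 without overlap (means 2029 and 6186) and Atp6v1h the largest difference (means 1482 and 3809, with overlap). In purified cells 5 of 16 were lower, and Atp6v1e1 was without overlap, at 0 to 6380 against 7280 to 13631 with glia. With OCM 5 of 16 were higher than in purified cells, Atp6v1e1 most, with means of 6200 and 2365. Against glia-cultured cells 4 of 16 were lower with OCM, Atp6v1a most, with means of 1537 and 2934.

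Of the genes that anchor the Gad2 enzyme on vesicles, Hspa8, a chaperone, had means of 7002 in pyramidal, 6247 in OCM-treated, 6201 in purified and 7289 in glia-cultured GABAergic cells. Dnajc5, its partner on vesicles, was above 0 in 3 of 5 OCM-treated, 2 of 5 purified and 6 of 6 glia-cultured GABAergic cells. Zdhhc17, a palmitoyl transferase, was above 0 in 3 glia-cultured GABAergic cells and in no other cell. Zdhhc13, of the same enzyme family, averaged 530 with OCM and 235 in purified cells, with overlap. On the putrescine route, Sat1 averaged 3034 in pyramidal and 1316 in glia-cultured GABAergic cells, with overlap. In that comparison 0 of 2 measured genes of the route were past the threshold. The highest pyramidal Sat1 values, 6674 and 4640, were those of cells 3 and 4, which held oligodendrocyte transcripts. The Sat1 mean without these cells was not computed. Odc1 averaged 1621 with OCM and 606 in purified cells, also with overlap. Other vesicular transporters were at 0 in most GABAergic cells. Slc17a6 reached 1.22, Slc17a8 was at 8.22 in 1 purified cell and at 274 and 650 in 2 glia-cultured cells, and Slc18a2 was above 0 in 2 OCM-treated and 3 glia-cultured cells, at up to 552. The neuronal glycine transporter Slc6a5 was at 5.48 in 1 purified cell and at 0 in the other 20 cells.

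Among transcription factors of forebrain GABAergic neurons, 8 measured ones had 7 past the threshold as lower in pyramidal cells. In purified against glia-cultured cells 5 of 7 were lower, and in OCM-treated against purified cells 5 of 8 were higher and 2 lower. Over all genes 64.2% and 64.4% were lower in the first pair of comparisons, and 56% were higher and 16.4% lower in the third. Satb1 differed most there, with means of 1235 with OCM and 537 in purified cells, where 1 cell had it. Dlx2 was above 0 in 3 OCM-treated cells and in purified cell 4, at 764, and in no glia-cultured GABAergic cell.

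**Figure D4:**
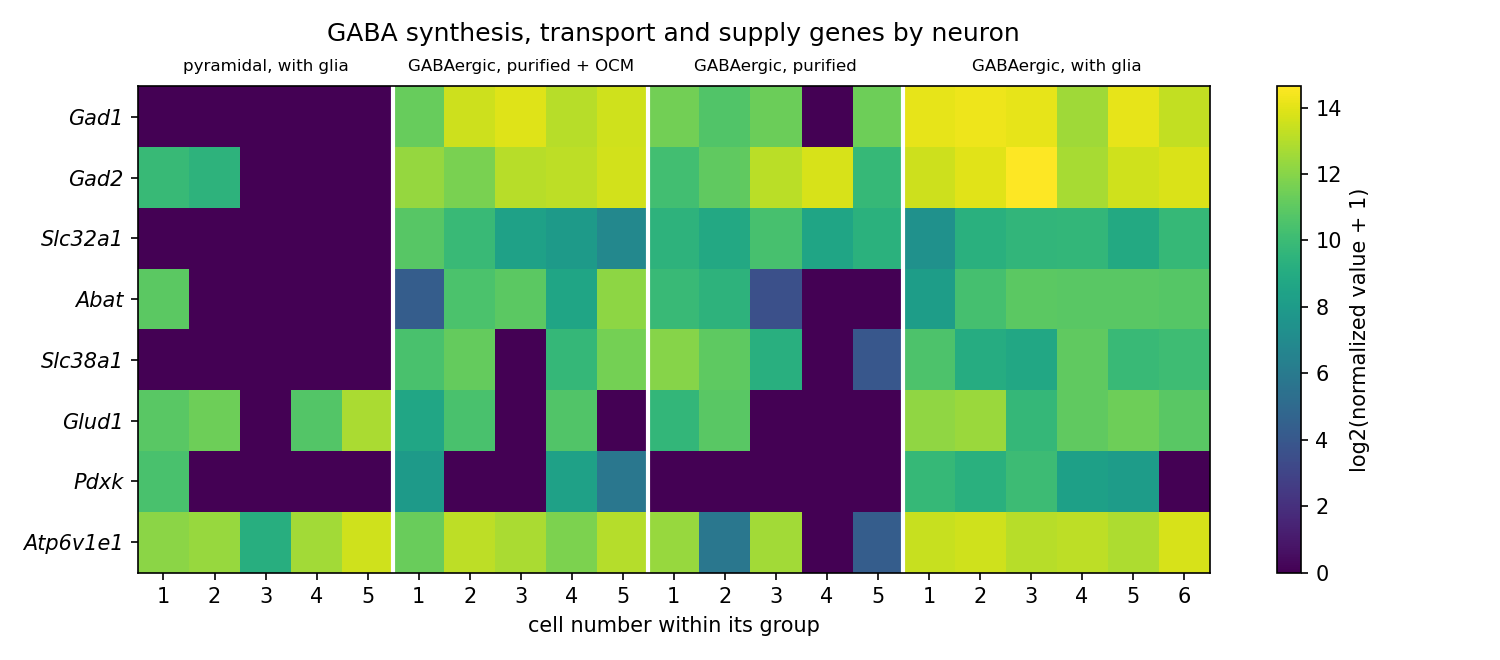
Each tile is the log2(normalized value + 1) of a gene in 1 neuron, with neurons in columns by group; dark tiles are cells at 0. Slc32a1 is above 0 in all 16 GABAergic neurons, Gad1 is at 0 in purified cell 4, and Pdxk is at 0 in all 5 purified cells.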

How the data were processed

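Single neurons were amplified with SMART-Seq v4 and sequenced as Nextera XT libraries, per the labels' protocols. The submitters' processing notes list rn6 as the build and DESeq2, STAR 2.4.0, SAMtools, Picard and FastQC as tools, without their roles. Which counter, annotation or strand setting was used is not given in the sources read. The name the authors gave the deposited table calls its signal per gene DESeq2-normalized. Of 34976 rows, 18376 have no symbol, and for repeated symbols the row with the highest mean was kept, which left out 355 rows. Of 16245 symbols, 14108 are current and 1739 are synonyms in the GRCr8 gene table of RefSeq. 0 columns lacked a sample.

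In each cell 100% of values were whole multiples of 1 step, within 0.05 of a whole number, which gave back reads and depth. No count test was run on them, since each group is 1 sample and cells are not replicates. Differences are between group means of log2(value + 1) over genes above 0 in at least 3 cells, on a scale that understates changes of low genes and follows detection. A gene was called past a difference of 1, in size. Pathway genes are named where cells of the groups did not overlap past that difference, or else as the largest difference of their list. Those named besides, and the other per-cell values, were chosen after values were seen. The 5 genes of highest Spearman rho are named per member. The members and lists were chosen with earlier results of these data known. Cells with at least 20 Gad1 plus Gad2 reads gave a Gad1 share. The alternatives were pseudocounts, scalings, medians, ratios of means, thinning, title letters and leaving out each cell. Cells titled P, leaving out pyramidal cells 3 and 4, and the alternatives for counts of pathway genes were added after seeing the data. Values of some listed genes are not reported here. Scripts were tested on simulated data. Values were computed in Python 3.11.15 with scipy 1.17.1, pandas 2.3.3 and numpy 2.4.6, and drawn with matplotlib 3.10.9.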

Additional observations from a re-analysis of the deposited data

How the results depend on the processing

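Each of 12 member differences, 3 differences in the Gad1 share and 4 counts of pathway genes was recomputed, in 357 settings in all. In 348 the value moved by less than the spread between cells, or by less than 1.5 times for counts, and no difference past the threshold changed sign. For Gad1 this spread, a pooled SD in log2, was 3.39 for purified against glia-cultured cells. It was 3.64 for OCM-treated against purified cells, and purified cell 4, at 0, widened both. A move from -4.74 to -2.17 in the first of these thus counted as within the spread. The other 9 settings concern 4 differences. In pyramidal against glia-cultured GABAergic cells, Gad1 was -10.41 with a pseudocount of 10 and -17.05 with 0.1, and Slc32a1 was -5.83 and -12.44, since pyramidal cells are at 0 and the pseudocount sets the size. Gad2 in the same comparison was -5.47 as the ratio of group means, -13.70 as the difference of medians, -4.17 among cells titled S and -13.64 among cells titled P. Gad2 in purified against glia-cultured cells was -3.83 among cells titled P, which are 1 purified cell and 3 glia-cultured ones. Leaving out any 1 cell, Gad1 ranged from -5.37 to -2.50 in purified against glia-cultured cells and from 1.84 to 4.72 in OCM-treated against purified cells, and Gad2 in that second comparison from 0.73 to 1.73. Slc32a1 ranged from -0.12 to 0.40 in purified against glia-cultured cells, so its direction there depended on the cells used. The Gad1 share in OCM-treated against glia-cultured cells was 4.15 percentage points as a mean, -2.03 as a difference of medians and -1.84 without OCM-treated cell 2. No paired analysis was possible because the labels give the cells no numbers that tie them to an animal, culture or day: the cell numbers used here only name them.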
